A study of Mus musculus with 6 samples.

Results

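The 10 interferon ligand genes examined here cover the 3 classes of interferon: *Ifnb1*, *Ifna1*, *Ifna2*, *Ifna4*, *Ifna5*, *Ifnk* and *Ifne* (type I), *Ifng* (type II), and *Ifnl2* and *Ifnl3* (type III). They were chosen by symbol, and all 10 were found among the 59485 genes of the deposited table. The libraries came from sciatic nerves at postnatal day 4, from 3 wild-type mice (control-labelled) and 3 mice of genotype Ht-PA-Cre; Adar1fl/fl;R26R (mutant-labelled). In the latter, Cre under the human tissue plasminogen promoter removes floxed *Adar*, the gene of the RNA-editing enzyme ADAR1, in neural crest cells, and R26R is a YFP tracer of the same cells. Cells of other origin in the nerve, such as endothelial and blood cells, keep the gene, and each value is a sum over all cells of the nerve, so that more cells of a type and more RNA per cell cannot be told apart.

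Type I interferons are secreted proteins made when a cell senses foreign or unedited double-stranded RNA through MDA5 or RIG-I, and they act on nearly every cell through the receptor IFNAR. IFN-beta and IFN-alpha4 are known as the early members, switched on by IRF3, and for IFN-beta also by NF-kappaB, whereas most other IFN-alpha genes need newly made IRF7. Interferon gamma is made mostly by activated T and NK cells, and interferon lambda mostly at epithelial surfaces, where its receptor is found.

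Only 3 of the 10 genes, *Ifnb1*, *Ifna4* and *Ifng*, had reads in all 3 mutant-labelled libraries, and none of the 10 had a read in any control-labelled library. Each control-labelled library had reads on only 28502 to 28906 of the 59485 genes. *Ifnb1* was at least 139-fold higher, *Ifna4* at least 34.9-fold and *Ifng* at least 4.82-fold. *Ifna5* had 4 reads in a single mutant-labelled library and *Ifna1* had 1 read in another. *Ifna2*, *Ifnk*, *Ifne*, *Ifnl2* and *Ifnl3* had no read in any of the 6 libraries. Values are reads divided by a size factor for each library, and a fold against controls without reads is a lower bound, set against 3 reads in each control library (a mean value of 3.32). These floors, and the intervals given with reads, reflect the error of counting alone, because reads amplified by PCR and lacking molecular identifiers are not separate molecules.

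The libraries held 50938349 to 78250094 reads on genes, and 1 read was worth 0.727 to 1.27 in value. *Adar* itself had 1601 ± 467 in controls and 10284 ± 1306 in mutant-labelled libraries (SD, n = 3, log2 fold change 2.72, limma adjusted p = 4.1e-05), against the labelled deletion. With a single value for each gene, the deleted segment cannot be told apart from the rest, and every direction here is drawn from the labels. Schwann cell markers were present in every library, and their summed value was 2489150 to 3192170 in controls and 54768 to 332755 in mutant-labelled libraries. Among the controls, replicate 2 stood apart, with a summed value of 8562 over 6 interferon-stimulated genes against 4412 and 4316 in replicates 1 and 3. Skeletal muscle markers varied most among the mutants, with a summed value of 306302 in replicate 3 against 94055 and 40330 in replicates 1 and 2.

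Interferon genes are switched on through short sites in the DNA just before their start, where interferon regulatory factors bind repeats of GAAA and NF-kappaB binds its own consensus. The 250 bases before the annotated start are shown for *Ifnb1* and *Ifna4*, the type I genes with reads in all mutant-labelled libraries, and for *Ifna2* and *Ifna5*, close relatives of *Ifna4* with 0 and 4 reads in all. They are RefSeq sequences of build GRCm38.p6, 5′ to 3′ on the gene's strand, and capitals mark matches to AANNGAAA and, in *Ifnb1*, to the NF-kappaB consensus.
Ifnb1, chr4:88522795-88523044, minus strand: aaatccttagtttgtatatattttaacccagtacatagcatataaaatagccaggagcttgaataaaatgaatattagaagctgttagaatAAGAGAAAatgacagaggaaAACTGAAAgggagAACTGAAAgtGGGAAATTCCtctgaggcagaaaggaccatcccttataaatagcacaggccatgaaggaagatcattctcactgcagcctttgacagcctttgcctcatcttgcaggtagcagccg
Ifna4, chr4:88841566-88841815, plus strand: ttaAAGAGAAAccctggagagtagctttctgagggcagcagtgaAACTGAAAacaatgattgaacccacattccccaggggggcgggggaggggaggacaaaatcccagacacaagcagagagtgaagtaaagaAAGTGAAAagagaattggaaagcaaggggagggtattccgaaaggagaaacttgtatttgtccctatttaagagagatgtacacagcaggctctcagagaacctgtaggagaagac
Ifna2, chr4:88683780-88684029, minus strand: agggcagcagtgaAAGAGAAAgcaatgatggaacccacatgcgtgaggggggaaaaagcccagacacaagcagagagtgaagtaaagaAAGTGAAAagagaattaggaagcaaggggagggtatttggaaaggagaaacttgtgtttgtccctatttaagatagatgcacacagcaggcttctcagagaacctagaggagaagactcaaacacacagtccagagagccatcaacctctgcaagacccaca
Ifna5, chr4:88835275-88835524, plus strand: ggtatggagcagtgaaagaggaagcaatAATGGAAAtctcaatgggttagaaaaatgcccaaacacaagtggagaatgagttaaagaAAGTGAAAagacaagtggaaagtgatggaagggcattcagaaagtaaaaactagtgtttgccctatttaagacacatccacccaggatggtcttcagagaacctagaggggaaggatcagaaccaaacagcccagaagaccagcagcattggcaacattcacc

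In the window of *Ifnb1*, AANNGAAA occurred 3 times, at 159 to 152, 139 to 132 and 126 to 119 bases before the start. The NF-kappaB consensus (GGGAAATTCC, at 116 to 107 bases before the start) followed the last of them without overlap. *Ifna4* also held 3 matches to AANNGAAA, at 247 to 240, 206 to 199 and 116 to 109 bases before its start, but no match to the NF-kappaB consensus. *Ifna2* and *Ifna5* held 2 each, *Ifne* 2, *Ifna1* and *Ifng* 1 each, and *Ifnk* none. No match was found for *Ifnl2* and *Ifnl3* either, but the RefSeq start of *Ifnl2* lies inside the gene as the table gives it, so that its window covers part of the gene. The window of *Ifnl3* is nearly the same in sequence, so that this limit may hold for *Ifnl3* too. Both strands were searched in all 10 members, which all matched an entry, and *Ifnb1* was the only member with the NF-kappaB consensus. Among 32851 promoter windows of the same length, 21.3% held AANNGAAA and 3.9% held the NF-kappaB consensus. The silent *Ifna2* and *Ifne* thus also held matches, and a match is a description of the letters, not of a bound site.

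*Ifnb1* (GSMG0028038, chromosome 4, 88522025 to 88522794, mm10, minus strand) encodes IFN-beta in a single exon, with a coding sequence of 546 bases. Its values were 465.5, 408.1 and 507.4 in mutant-labelled replicates 1, 2 and 3, a mean of 460.4 ± 49.8 (SD, n = 3), against 0, 0 and 0 in the controls. The replicates lay close together, with a coefficient of variation of 10.8%, and far from the controls. These values rest on 640, 423 and 513 reads, or 8.18 (95% exact binomial interval 7.56 to 8.84), 7.16 (6.49 to 7.87) and 8.99 (8.23 to 9.81) reads per 1000000 reads on genes. In each control-labelled library, 0 reads allow a value of at most 2.83 to 3.802. On the log2(value + 1) scale, *Ifnb1* rose by 8.84 (standard error 0.50, limma adjusted p = 1.11e-05), in 3 of 3 mutant-labelled libraries.

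*Ifna4* (GSMG0026731, chromosome 4, 88841816 to 88842459, mm10, plus strand), the IFN-alpha gene known to respond early, lies in the same cluster. Its values were 132, 129 and 86.0 in mutant-labelled replicates 1, 2 and 3, a mean of 116 ± 25.9 (SD, n = 3), and again 0 in each control. Replicate 3, which had the highest *Ifnb1*, had the lowest *Ifna4*. The 182, 134 and 87 reads correspond to 2.33, 2.27 and 1.53 on the same scale, and the interval of replicate 3 (1.22 to 1.88) lies below those of replicates 1 (2.0 to 2.69) and 2 (1.90 to 2.69). On the log2(value + 1) scale, *Ifna4* rose by 6.84 (standard error 0.64, limma adjusted p = 0.000119), in 3 of 3 libraries.

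*Ifng* (GSMG0003583, chromosome 10, 118441045 to 118445894, mm10, plus strand), with 4 exons, encodes interferon gamma and lies outside the type I cluster. Its values were 7.27, 28.9 and 11.9 in mutant-labelled replicates 1, 2 and 3, a mean of 16.03 ± 11.4 (SD, n = 3), from only 10, 30 and 12 reads, and 0 in each control. Replicate 2 had more than the other mutant-labelled libraries, and the groups did not overlap. On the log2(value + 1) scale, *Ifng* rose by 3.88 (standard error 0.94, limma adjusted p = 0.013). Without mutant replicate 2, its mean fell below the minimum value of 10 in a group, which also lowers its bound, and it was then not tested. The gene annotated on the opposite strand had 2 reads in control replicate 1 (a value of 2.22) and none elsewhere.

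**Figure D1:**
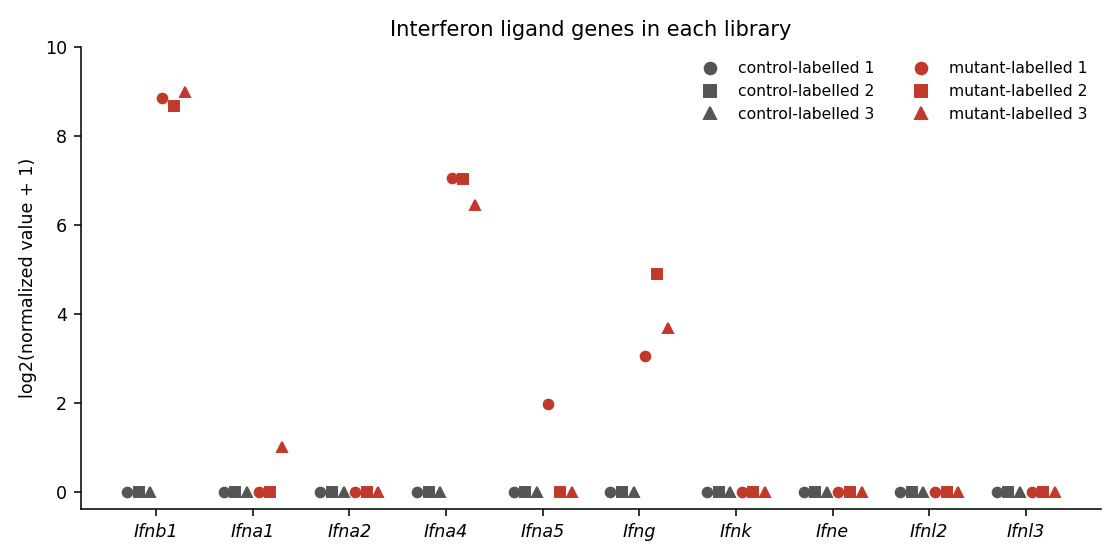
Normalized value of each interferon ligand gene in each library, as log2(value + 1), with grey for control-labelled and red for mutant-labelled libraries and 1 symbol shape per replicate number. *Ifnb1*, *Ifna4* and *Ifng* stand above 0 in all 3 mutant-labelled libraries, while every control-labelled library lies at 0 for all 10 genes.

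The test covered the 25802 genes whose mean reached 10 in either group, of which 24.2% passed the threshold of an unadjusted p at or under 0.05 and at least 2-fold, 13.9% higher and 10.4% lower. *Ifnb1*, *Ifna4* and *Ifng* entered it through the mutant-labelled group alone, so that a difference was bound to appear, and the other 7 members had too few reads to be tested. Of all 59485 genes in the table, 642 (1.08%) had no reads in any control-labelled library and reads in every mutant-labelled one. Among these, *Ifnb1* had the rank 4 by mean value, *Ifna4* the rank 16 and *Ifng* the rank 206. With 3 libraries against 3, an exact two-sided permutation test gave p = 0.1 for each of the 3 genes, the smallest it can give.

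Per kilobase of annotated transcript, the mutant-labelled mean was 614 ± 66.4 for *Ifnb1*, 207 ± 46.2 for *Ifna4* and 13.3 ± 9.45 for *Ifng* (normalized value per kb, SD, n = 3). The order was the same in the 3 libraries and the ranges did not overlap, from 544 to 677 for *Ifnb1*, 153 to 236 for *Ifna4* and 6.02 to 24.0 for *Ifng*. The ratio of *Ifnb1* to *Ifna4* per kb was 2.63 in replicate 1, 2.36 in replicate 2 and 4.41 in replicate 3. *Ifna5* reached 5.10 per kb in replicate 1 and *Ifna1* 1.74 per kb in replicate 3, from 4 reads and 1 read.

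The 18 type I genes, which are the 7 members and 11 further genes (*Ifna6*, *Ifna7*, *Ifna9*, *Ifna11* to *Ifna16*, *Ifnab* and *Ifnz*), together had 866, 564 and 619 reads in mutant-labelled replicates 1, 2 and 3. *Ifnb1* held 73.9% of them (exact 95% interval 70.8 to 76.8), 75% (71.2 to 78.5) and 82.9% (79.7 to 85.8), and *Ifna4* 21.0, 23.8 and 14.1%. The remaining 16 genes shared 44, 7 and 19 reads. The 12 predicted entries of this cluster that resemble *Ifnz* were not counted among the 18. With their reads the shares would be lower. In the controls, the 18 genes had 4, 8 and 17 reads in all, none of them in a member.

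Those control reads fell on *Ifnz*, *Ifna6*, *Ifna7* and *Ifnab*. *Ifnz*, which encodes limitin, had values of 4.44, 0 and 10.1 in control-labelled and 16.7, 4.82 and 17.8 in mutant-labelled replicates 1, 2 and 3, and the groups overlapped (log2 fold change 1.67, standard error 1.08, limma adjusted p = 0.265). It was the only further type I gene with enough reads for the test, so 0 of the 11 passed in limma (1 was tested, and 0 had an unadjusted p under 0.05), and 0 passed with edgeR or DESeq2. *Ifnab* had 7.56 in control replicate 2 against 3.64, 1.93 and 0 in the mutants, and *Ifna6* 7.603 in control replicate 3 against 5.82 in mutant replicate 1. No read was found for *Ifna9*, *Ifna11*, *Ifna12*, *Ifna13*, *Ifna14* and *Ifna15* in any library.

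Reads of similar genes can be split or lost in counting, and the coding sequence of *Ifna4* matched those of 12 other numbered *Ifna* genes at 83.9 to 87.6% of aligned bases, and that of *Ifnb1* at 50.9%. Yet none of the 432 windows of 130 bases in the *Ifna4* transcript, the length of a read, was found in another transcript of the annotation, nor any of the 621 windows of *Ifnb1*. *Ifna2* and *Ifna5* had none either. In *Ifng*, 59 of 1079 windows were shared with *Gm49751*, a GENCODE gene within it on the same strand. In *Ifna1*, 5.9% of windows were shared with *Ifna16*, and *Ifnl2* and *Ifnl3* shared 37 windows with each other. For *Ifnz*, 54.6% of windows were shared with 20 predicted genes, and its values are uncertain for this reason. In the deposited table, no member had another gene on its own strand, and *Ifnk*, at 0 in every library, lies within *Mob3b* on the opposite strand.

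The type I cluster held both the switched-on and the silent genes side by side. Within 300 kb of *Ifnb1*, the table names 12 interferon genes including *Ifnb1* itself, 12 entries of predicted genes that resemble *Ifnz*, and 4 others. Between *Ifnb1* and *Ifna4*, *Klhl9*, a ubiquitin ligase adaptor, was expressed at a like level in both groups, with 7145 ± 1669 and 7526 ± 551 (log2 fold change 0.10, standard error 0.16, limma adjusted p = 0.664). On the other side, *Focad* had 595 ± 88.1 and 454 ± 62.1 (-0.39, adjusted p = 0.125 in limma), and *Hacd4*, an enzyme of very long chain fatty acid synthesis, 142 ± 23.7 and 252 ± 23.3 (0.83, adjusted p = 0.0244), under 2-fold. *C87499* had no reads. Of the 12 predicted entries, 5 had enough reads to be tested and 3 passed the threshold, *Gm13277*, *Gm13283* and the joint entry of *Gm13288*, *Gm13289* and *Gm13290*, with mutant-labelled means of 16.2, 12.3 and 10.4. They entered the test through that group alone, and near-identical genes here share reads.

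**Figure D2:**
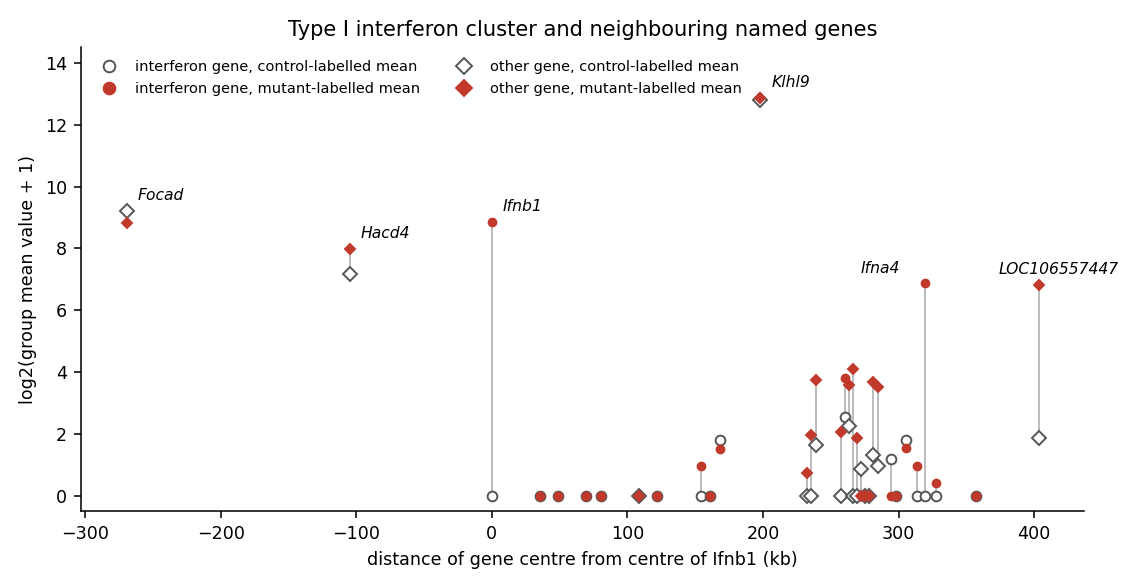
Group means as log2(value + 1) for the named genes of the type I interferon cluster and its neighbours against the distance of each gene's centre from *Ifnb1* in kb, with circles for interferon genes, diamonds for other genes, open grey for control-labelled and filled red for mutant-labelled means. *Ifnb1* and *Ifna4* rise from 0 while *Ifna2* and 6 further *Ifna* genes between or beside them stay at 0 in both groups and *Klhl9* hardly moves.

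The machinery that switches on interferon genes was largely higher in mutant-labelled libraries. Of 22 genes for RNA or DNA sensing and interferon induction, 12 rose past the threshold and none fell, with a median log2 fold change of 1.77 over the 22 against 0.03 over all tested genes (14 rose without control replicate 2, with *Ikbke* at 1.20 and *Irf8* at 1.02), and 20 did not overlap between groups (49.2% of all tested genes did not). *Irf7*, the factor that opens the later IFN-alpha genes, had a mean of 881 ± 935 in controls and 81990 ± 15216 in mutant-labelled libraries (log2 fold change 7.12, standard error 0.67, limma adjusted p = 0.000115). With a library left out, its log2 fold change was 6.37 to 7.99. Its values were 492, 1947 and 204 in controls 1 to 3 and 99343, 70931 and 75697 in mutants 1 to 3, and it rose although most *Ifna* genes had no reads.

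The cytosolic RNA sensors rose together: *Ifih1* (MDA5) from 559 ± 331 to 25699.5 ± 3356, a log2 fold change of 5.69, *Ddx58* (RIG-I) by 4.42 and *Dhx58* (LGP2) by 5.49, with limma adjusted p-values of 2.24e-05 to 5.42e-05. *Trim25*, which activates RIG-I, rose by 2.94 and *Tlr3*, the endosomal sensor of double-stranded RNA, by 4.04. *Irf1*, *Irf5*, *Tlr9*, *Myd88*, *Tmem173* (STING) and *Mb21d1* (cGAS) also passed, with log2 fold changes of 1.76 to 2.75.

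The factors known to act first on *Ifnb1* did not pass the threshold. *Irf3* had 3017 ± 253 and 3240 ± 150 (log2 fold change 0.11, standard error 0.10, limma adjusted p = 0.454), and the adaptor *Mavs* 1201 ± 90.7 and 1046 ± 72.3 (-0.20, adjusted p = 0.241). The NF-kappaB subunits *Nfkb1* (0.81) and *Rela* (0.45), the kinases *Tbk1* (0.79) and *Ikbke* (0.98), and *Traf3* (0.75) had higher values in all 3 mutant-labelled libraries, with adjusted p-values of 0.000447 to 0.0224, but stayed under 2-fold. *Ikbke* passed 2-fold with the libraries scaled to the same total (1.15), without control replicate 2 (1.20) and without mutant replicate 3 (1.17). IRF3 and NF-kappaB are known to be switched on by phosphorylation and release, which these values do not measure.

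Among the 6 receptor subunits, only *Ifnlr1*, the specific chain of the lambda receptor, passed the threshold, at 6.66, 0 and 2.53 in control-labelled and 7.27, 32.8 and 21.8 in mutant-labelled replicates 1, 2 and 3 (log2 fold change 2.63, standard error 1.01, limma adjusted p = 0.0757). It entered the test through the mutant-labelled group alone, and the call was lost without control replicate 2 (1.83) or 3 (2.74), without mutant replicate 2 (2.19) or 3 (2.48), and with a pseudocount of 0.1, the replicate block or edgeR. *Ifnar1* and *Ifnar2*, the chains of the receptor for all type I interferons, had log2 fold changes of opposite sign, both under 2-fold and not past the threshold. *Ifnar2* had 1890.1 ± 34.7 and 3181 ± 145 (0.75, standard error 0.09, limma adjusted p = 0.000505), and *Ifnar1* 2499 ± 359 and 1921 ± 221 (-0.38, adjusted p = 0.0655), and neither overlapped between groups. *Ifngr1* (-0.08) and *Il10rb* (0.08) overlapped, and *Ifngr2* had a log2 fold change of 0.35 (adjusted p = 0.0416). Receptor transcripts for type I and type II interferon were present in every library, at values of 979 to 5109.

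Below the receptors, 6 of 9 genes of signalling and feedback rose and none fell, with a median log2 fold change of 2.94. They include the transcription factors *Stat2* (2.98) and *Irf9* (2.94) and the feedback inhibitors *Usp18* (6.18), *Socs1* (2.498) and *Socs3* (2.95), with limma adjusted p-values of 1.13e-05 to 0.000138. The kinases stayed under 2-fold: *Jak1* was 0.67 and *Jak2* 0.40 on the log2 scale, and *Tyk2* was -0.57 (adjusted p = 0.0144). The 6 interferon-stimulated genes that the study used as its signature (*Cxcl10*, *Isg15*, *Ifit1*, *Ifit2*, *Rsad2*, *Mx1*) all rose, by 2.92 to 8.55.

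**Figure D3:**
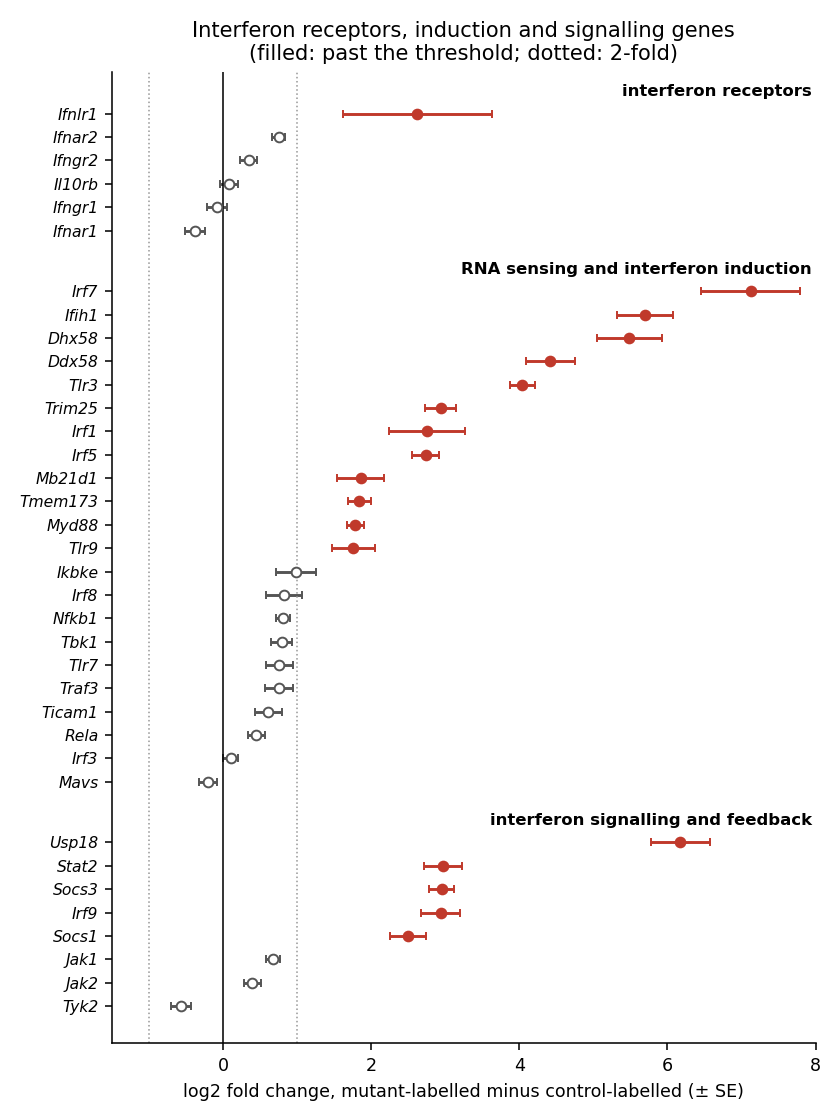
Log2 fold change, mutant-labelled minus control-labelled, with its standard error, for the receptor subunits, the genes of RNA sensing and interferon induction, and the signalling and feedback genes reported here, with filled red points past the threshold and dotted lines at 2-fold. *Irf7* at 7.12 and *Usp18* at 6.18 lie farthest to the right, while *Irf3*, *Mavs* and the receptor chains other than *Ifnlr1* lie within 2-fold of no change.

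Control replicate 2 had the highest interferon-stimulated genes of the controls without any read of a member. *Irf7* was 1947 there, 5.60 times the mean of replicates 1 and 3, *Ifit1* 1237 (6.02 times) and *Isg15* 2635 (4.81 times). These levels lay far under those of the mutants, where *Irf7* averaged 81990 and *Ifit1* 76445. Without this library, the log2 fold changes of *Ifnb1*, *Ifna4* and *Ifng* were the same, since the controls were at 0.

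*Cxcl9*, a chemokine classically induced by interferon gamma, rose from 180 ± 112 to 15115 ± 3244, a log2 change of 6.62 (standard error 0.49, limma adjusted p = 3.64e-05), but the rest of the 8 genes known to respond to interferon gamma did not move as a group. The log2 change of *Cxcl9* was 5.98 without control replicate 3 and 7.08 without control replicate 2. *Ido1*, at 0 in each control and at 7.27, 21.2 and 1.98 in mutants 1 to 3, also passed (unadjusted p only, adjusted p = 0.0624 in limma). It entered the test through the mutant-labelled group alone, lost its call with a pseudocount of 10 (0.90), and fell under the filter without mutant replicate 2 and with the libraries scaled to the same 75th percentile. The MHC class II genes *H2-Ab1* (-1.93, adjusted p = 0.00442 in limma) and *H2-Eb1* (-1.03, adjusted p = 0.0396) fell, and the latter lost its call without control replicate 1 (-0.90), control replicate 3 (-0.89) or mutant replicate 3 (-0.85), at the same total (-0.87) and with a pseudocount of 10 (-0.97). The class II regulator *Ciita* had 0, 0 and 12.7 in controls against 13.1, 13.5 and 9.89 in mutants. It entered the test through the mutant-labelled group alone and passed only without control replicate 3 (3.71), which leaves 0 in each control. *Cd74* (0.95), *H2-Aa* (-0.87) and *Nos2* (-0.08) did not pass, and the median of the list was 0.44. *Cd74* passed without control replicate 3 (1.12) or mutant replicate 3 (1.15) and with the libraries scaled to the same total (1.11), and *H2-Aa* without mutant replicate 2 (-1.23).

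Of the 10 cytokines and receptors known to induce interferon gamma, 7 were tested and 6 rose. *Il12b*, *Il18r1* and *Il27* entered the test through the mutant-labelled group alone, and *Il12a*, *Il2* and *Il21* had too few reads to be tested, so that this count is no support. *Il15* rose from 39.3 ± 1.43 to 366 ± 56.1 (log2 fold change 3.18, limma adjusted p = 6.7e-05), *Il18* from 99.3 ± 27.5 to 263 ± 21.9 (1.43, adjusted p = 0.00468) and *Il27* from 7.22 ± 6.405 to 80.0 ± 48.0 (3.71, adjusted p = 0.0282). *Il12b* was at 0 in each control and at 17.5, 17.4 and 1.98 in mutants 1 to 3, and had too few reads to be tested without mutant replicate 1 or 2, where 4 of the list passed. *Il18r1* (2.91) passed at the unadjusted p alone and lost its call without control replicate 2 (2.11) or mutant replicate 2 (2.38), as did *Il12rb1* (1.54) without control replicate 3 (1.05) or mutant replicate 1 (1.33) or 3 (1.52). *Il12rb2* did not change past the threshold (0.00), and *Il2* had no reads.

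Markers of T and NK cells, the usual sources of interferon gamma, had a higher summed value where *Ifng* was read. Of 14 markers, 13 were tested, 11 rose and none fell, but *Cd3g*, *Cd8a*, *Ncr1*, *Klrd1*, *Nkg7*, *Prf1*, *Gzma*, *Gzmb* and *Eomes* entered the test through the mutant-labelled group alone, so that this count is no support. The summed value was 155 to 232 in controls and 779 to 1298 in mutant-labelled libraries. The NK receptor *Ncr1* had 50.9, 75.3 and 37.6 in the mutants, the killer protease *Gzmb* 67.6, 206 and 126, and perforin (*Prf1*) 51.6, 32.8 and 7.91, and all 3 were at 0 in each control, as were *Cd8a* and *Eomes*. Replicate 2 had the highest summed value and the highest *Ifng*, whereas replicate 3 had the lowest sum and replicate 1 the lowest *Ifng*. The T cell receptor chains *Cd3e* (16.7 ± 9.67 against 13.2 ± 10.9) and *Cd3g* overlapped between groups. *Cd4* (1.05) lost its call without control replicate 3 (0.80) or mutant replicate 1 (0.85) or 3 (1.03), with a pseudocount of 10 (0.99) and at the same 75th percentile (0.94), and *Tbx21* (1.62) without control replicate 1 (1.62) or 2 (1.15) or mutant replicate 2 (1.31) and with the replicate block. The part of these cells in the values of *Ifng* was not tested.

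**Figure D4:**
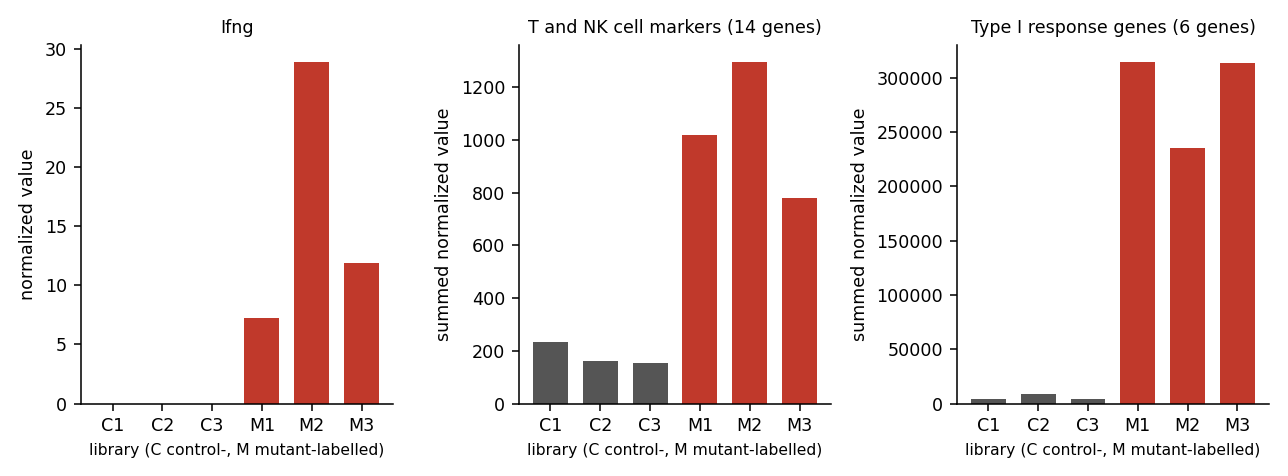
Normalized value of *Ifng*, summed normalized value of 14 T and NK cell markers and summed normalized value of 6 interferon-stimulated genes in each library (C1 to C3 control-labelled in grey, M1 to M3 mutant-labelled in red), with bars from 0. *Ifng* and the T and NK markers are both highest in mutant replicate 2 (28.9 and 1298), and the stimulated genes are lowest there among the mutants, at 234846 against 314813 and 313766.

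For the type I genes, markers of plasmacytoid dendritic cells, which are known for making IFN-alpha, gave no common direction. Of 7 markers, 6 were tested, 2 rose and 1 fell, where 13.9% of all tested genes rose and 10.4% fell. The marker that fell was *Siglech*, a defining marker, with 35.5, 13.2 and 36.7 in controls against 20.4, 1.93 and 0 in mutants (adjusted p = 0.0944 in limma). It entered the test through the control-labelled group alone. Its call was lost with edgeR, DESeq2, eBayes without trend, a pseudocount of 0.1 and the libraries scaled to the same total, and without control replicate 1 (-2.55) or 3 (-2.52) or mutant replicate 2 (-2.54) or 3 (-1.77). *Spib* rose from 11.5 ± 10.4 to 117 ± 21.9, and *Cox6a2* rose with the highest value (2780) in mutant replicate 3, where muscle markers were also highest. *Klk1* had at most 1 read in a library. The summed value of the list was 297 to 509.7 in controls and 813 to 2976 in mutant-labelled libraries, most of it *Cox6a2* in the mutants.

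Macrophage markers had a summed value of 10966 to 14107 in controls and 5077 to 6868 in mutant-labelled libraries. *Csf1r* (-1.25), *Cx3cr1* (-1.83) and *Mrc1* (-2.27) fell past the threshold, *Aif1* rose (1.04), and 3 others did not pass. *Csf1r* came to -0.99 without mutant replicate 3, and *Aif1* to 0.86 without control replicate 3, 0.91 without mutant replicate 1 and 0.92 at the same 75th percentile, all under 2-fold. Of 6 Schwann cell markers, 5 fell, all except *Sox10* (-0.71). Keratinocyte markers were low, at summed values of 218 to 269 and 251 to 335, and 3 of 5 rose, *Trp63* by 3.04, *Krt5* by 2.84 and *Krt14* by 3.24, each of which entered the test through the mutant-labelled group alone. *Krt1* (-1.21) and *Krt10* (-0.27) were lower in the mutant-labelled libraries, without overlap, but did not pass. *Krt5* lost its call without control replicate 1 or 2 (2.53 each) and with a pseudocount of 10 (0.92), and was not tested without mutant replicate 1. *Krt14* lost its call without control replicate 2 or 3 (2.60 each) or mutant replicate 1 (2.995) or 2 (2.62), and with edgeR, DESeq2 and eBayes without trend. In these libraries, *Ifnk*, the interferon known from keratinocytes, and *Ifne*, known from epithelia, were at 0 throughout. Of 6 skeletal muscle markers, 5 rose, and *Acta1* lost its call without mutant replicate 3 (1.78) and with eBayes without trend (2.58). *Ifnb1* was nearly even over the mutant-labelled libraries, whereas summed markers of Schwann cells (332755, 54768 and 122278) and muscle varied several-fold between them. The part of each cell type in *Ifnb1* and *Ifna4* was not tested.

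By the likeness of their values over the 6 libraries (Euclidean distance of log2(value + 1), a description with no test), the genes nearest to *Ifnb1* included *H2-M2* (1.98), *Prss56* (2.34), *AA467197* (2.52) and *Heatr9* (2.52). *H2-M2*, a nonclassical MHC class I gene, had 167, 281 and 219 in the mutants and 0 in the controls. Those nearest to *Ifna4* were *H2-Q2* (0.16), *Hmx3* (1.02), the joint entry of *Gm8979* and *Gm8989* (1.06), *Heatr9* (1.06) and *Gm6904* (1.12). *H2-Q2*, a class I gene with close relatives that can share its reads, had 132, 116 and 88.0 in the mutants, beside 132, 129 and 86.0 for *Ifna4*, and also 0 in each control. These genes were at 0 in every control except *AA467197*, with 4.44 in replicate 1.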

How the data were processed

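Oriented poly-A RNA of sciatic nerves was sequenced as 130-base paired reads by the authors. They mapped the reads to mm10 with STAR 2.4.0, counted those on constitutive regions of FAST DB genes and scaled each library's counts by its DESeq2 size factor. The deposited signal is thus a normalized read count, and every value was a whole multiple of the value of 1 read (100% within 0.1 reads), so reads were recovered.

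log2(value + 1) was fitted with limma 3.58.1 (eBayes with trend, R 4.3.3) as mutant minus control for 25802 genes with a mean of at least 10 in a group. The threshold was an unadjusted p of at most 0.05 with at least 2-fold. P-values were adjusted by Benjamini-Hochberg over these genes. The 3 libraries of a group come from separate animals. Edited sites and splicing were not analysed here.

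The 14 gene lists, the members among them, were chosen with earlier results of these data known, and lists are given by counts without a set test. Named are all members and list genes, named genes within 300 kb of *Ifnb1*, and the 5 genes with a symbol nearest to *Ifnb1* and to *Ifna4* in value, apart from a few that are not reported here. *LOC106557447*, *Adar*, *Mob3b* and the antisense gene of *Ifng* were added after their values were seen. Transcript lengths and shared windows come from GENCODE M21, promoters from RefSeq. Identities were computed with Biopython. The fits were tested on data simulated from genes with control reads, so the test did not cover genes without them, such as the members. Alternatives were other pseudocounts, filters and scalings, eBayes without trend, an adjusted p, a replicate block, edgeR 4.0.16, DESeq2 1.42.0 and each library left out.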

Additional observations from a re-analysis of the deposited data

How the results depend on the processing

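*Ifnb1*, *Ifna4* and *Ifng* kept their direction and their side of the threshold in every alternative that gave them a value, with log2 fold changes of 5.55 to 12.16, 3.63 to 10.15 and 1.29 to 7.10. Since the controls are at 0, the direction could not turn in any alternative, so that keeping it is no support. The size depends on the pseudocount for the same reason, and it is no bound. *Ifng* had no value with a mean of at least 50 or without mutant replicate 2. With a library left out, the values were 8.77 to 8.93 for *Ifnb1*, 6.73 to 7.04 for *Ifna4* and 3.88 to 4.30 for *Ifng*. Of 6 receptor genes, 1 passed, and 0 passed with a pseudocount of 0.1, a mean of at least 50, an adjusted p, the replicate block or edgeR, and 0 to 1 with a library left out. Of the interferon gamma response genes, 4 passed, and 2 with a pseudocount of 10. The causes were not tested. Rescaling to the same total moved the median of all genes from 0.03 to 0.20, with 66.4% of calls higher, and to the same 75th percentile to -0.09, with 50.3% higher, against 57.3%. The replicate numbers did not pair the libraries (same-number correlations -0.06, -0.06 and 0.01), and the replicate block gave 6149 in place of 6251 calls. Of 103 single-gene results, 13 lost and 8 gained a call in some alternative, and no called value turned direction. The values of *Ifng* rest on 10 to 30 reads in a mutant-labelled library.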

Other observations

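*LOC106557447*, an entry on chromosome 4 beside *Ifne* that was chosen after its values were seen, had 2.22, 5.67 and 0 in control-labelled and 56.7, 149 and 131 in mutant-labelled replicates 1, 2 and 3, while *Ifne* itself had no reads.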
